A study of Mus musculus with 12 samples.

Results

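The genes described here are 8 transcription factors of the T lineage, Tcf7, Lef1, Bcl11b, Tox, Satb1, Zbtb7b, Tbx21 and Eomes, and the members are the regions of open chromatin that carry 1 of these names in the annotated master peak-list. Of the 84243 peaks in that list, 66 (0.0783%) were named for the 8 genes. The list came from ATAC-seq, which reads out where a transposase can reach the DNA, in 12 samples of 6 blood cell types with 2 replicates each. All mice were wild-type C57BL/6 aged 8 to 12 weeks and carried no transgene or treatment. The cell types were hematopoietic stem cells (HSCs), megakaryocyte progenitors (MkPs), erythroid progenitors (EPs), granulocyte/macrophages (GMs) and B cells, all from bone marrow, and T cells, whose labels give the thymus as the source. The T cells were sorted as CD3+ and CD25-, with CD4 and CD8 in any combination, so that they are a mixture of stages. The peaks were pooled over all cell types before annotation, and no peak carries a value for a sample. It is therefore unknown in which cell type a member was open, the depth behind it is unknown, no value has a replicate error, and the labelled cell types could not be checked against marker genes. All comparisons below are descriptions without a test.

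T cells arise when blood progenitors enter the thymus, receive Notch signals and give up the other fates in steps that are run by a small set of transcription factors. Tcf7 and Lef1 encode related HMG box factors that bind the same DNA letters and act from the earliest thymic stages, and Bcl11b encodes a zinc finger factor that is needed for commitment to the T lineage. Tox, another HMG box factor, and Zbtb7b (ThPOK) act in the CD4 lineage, Satb1 encodes a chromatin organizer of thymocytes, and the T-box factors Tbx21 (T-bet) and Eomes act in effector T cells and natural killer cells.

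The sequences below are stretches of 240 bases from GRCm38 (mm10), plus strand, read from the RefSeq assembly. For each gene the peak outside the promoter with the most kinds of consensus string was taken, and within it the stretch with the most kinds. Stretches of 6 of the 8 genes are shown. Those of Tox and Satb1 are left out, though their peaks are also discussed below. In the desert of Bcl11b the peak was taken in the same way from the densest window. Capitals mark matches, on either strand, to 11 consensus strings. The strings were CTTTGA for the TCF/LEF factors, TGTGGT for the RUNX factors, AGATAA for the factors named after that motif (GATA below), and AGGAAG for the ETS factors. For E-box proteins they were CAGCTG and, as a separate string, CAGGTG. For T-box factors the string was AGGTGT. For RBPJ, the factor of Notch signals, it was GTGGGAA. For AP-1 it was TGANTCA and for STAT factors it was TTCNNNGAA. That of CTCF, an insulator protein, is given by its name only. The T-box string and CAGGTG can share letters, as can those of AP-1 and TCF/LEF and those of RBPJ and RUNX.
Tcf7, upstream peak at chr11:52314126-52314624, bases chr11:52314380-52314619: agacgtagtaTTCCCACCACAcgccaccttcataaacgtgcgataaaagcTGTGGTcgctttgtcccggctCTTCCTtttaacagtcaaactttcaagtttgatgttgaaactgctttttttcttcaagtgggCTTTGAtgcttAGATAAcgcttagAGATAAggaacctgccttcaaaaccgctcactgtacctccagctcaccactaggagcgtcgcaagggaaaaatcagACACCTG
Lef1, upstream peak at chr3:131085918-131086416, bases chr3:131086080-131086319: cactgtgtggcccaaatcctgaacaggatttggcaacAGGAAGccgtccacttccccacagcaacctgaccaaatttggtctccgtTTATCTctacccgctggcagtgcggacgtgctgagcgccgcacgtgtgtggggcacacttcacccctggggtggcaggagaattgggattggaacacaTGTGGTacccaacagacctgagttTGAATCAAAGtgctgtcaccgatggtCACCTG
Bcl11b, upstream peak at chr12:108041526-108042024, bases chr12:108041705-108041944: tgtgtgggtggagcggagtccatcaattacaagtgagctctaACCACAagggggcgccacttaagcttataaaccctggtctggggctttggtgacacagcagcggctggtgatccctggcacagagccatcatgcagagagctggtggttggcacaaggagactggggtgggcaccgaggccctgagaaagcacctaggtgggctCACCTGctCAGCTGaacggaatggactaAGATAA
Bcl11b, peak in the gene desert at chr12:107141134-107141632, bases chr12:107141208-107141447: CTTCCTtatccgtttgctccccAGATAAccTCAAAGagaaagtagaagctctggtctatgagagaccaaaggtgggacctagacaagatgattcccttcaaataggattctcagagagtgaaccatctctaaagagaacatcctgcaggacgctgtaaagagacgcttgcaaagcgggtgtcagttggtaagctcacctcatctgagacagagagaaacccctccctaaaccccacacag
Zbtb7b, exonic peak at chr3:89379639-89380137, bases chr3:89379768-89380007: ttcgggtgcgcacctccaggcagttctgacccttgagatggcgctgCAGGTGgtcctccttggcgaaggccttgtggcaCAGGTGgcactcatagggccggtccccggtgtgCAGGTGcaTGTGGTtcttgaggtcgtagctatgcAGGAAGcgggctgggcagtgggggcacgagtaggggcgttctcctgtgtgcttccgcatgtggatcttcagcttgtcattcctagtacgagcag
Tbx21, upstream peak at chr11:97127077-97127575, bases chr11:97127119-97127358: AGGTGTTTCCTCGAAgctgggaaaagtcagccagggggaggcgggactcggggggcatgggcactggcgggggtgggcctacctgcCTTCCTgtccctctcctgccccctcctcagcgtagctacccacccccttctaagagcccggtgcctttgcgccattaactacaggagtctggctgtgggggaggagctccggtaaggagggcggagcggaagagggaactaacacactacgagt
Eomes, downstream peak at chr9:118489565-118490063, bases chr9:118489746-118489985: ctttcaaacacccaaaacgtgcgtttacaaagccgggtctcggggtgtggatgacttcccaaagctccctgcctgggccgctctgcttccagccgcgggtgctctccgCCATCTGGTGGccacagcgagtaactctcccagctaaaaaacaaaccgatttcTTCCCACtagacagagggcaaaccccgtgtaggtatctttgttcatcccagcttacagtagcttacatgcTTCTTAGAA

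Peaks were divided by the annotation of HOMER into promoter peaks, centred no more than 500 bp from a transcription start site (TSS), and non-promoter peaks in introns, between genes (intergenic) or elsewhere (exons, untranslated regions and the HOMER promoter class beyond 500 bp). Among the 66 member peaks 6 were promoter peaks (9.09%), 24 were intronic (36.4%), 29 were intergenic (43.9%) and 7 fell elsewhere (10.6%). In the whole list these shares were 15.6%, 40.5%, 37.6% and 6.22%. The larger intergenic share of the members came from Lef1 and Tox, which held 19 of the 29 peaks. Without them, a split chosen after seeing the data, the other 6 genes had 36 peaks, of which 10 were intergenic (27.8%) and 5 were promoter peaks (13.9%), both shares below those of the list. The number of peaks ranged from 16 for Lef1, 14 for Tox and 13 for Satb1 through 8 for Tcf7 to 4 each for Bcl11b, Zbtb7b and Tbx21 and 3 for Eomes. The median of 21000 coding genes of RefSeq was 2 peaks. At least as many peaks as Lef1 had were found for 2.75% of coding genes, against 3.91% for Tox, 4.57% for Satb1, 12.2% for Tcf7, 32.0% for Bcl11b, Zbtb7b and Tbx21, and 42.7% for Eomes. Thus 4 of the genes stood in the upper part of the range, and the other 4 were closer to the middle.

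**Figure D1:**
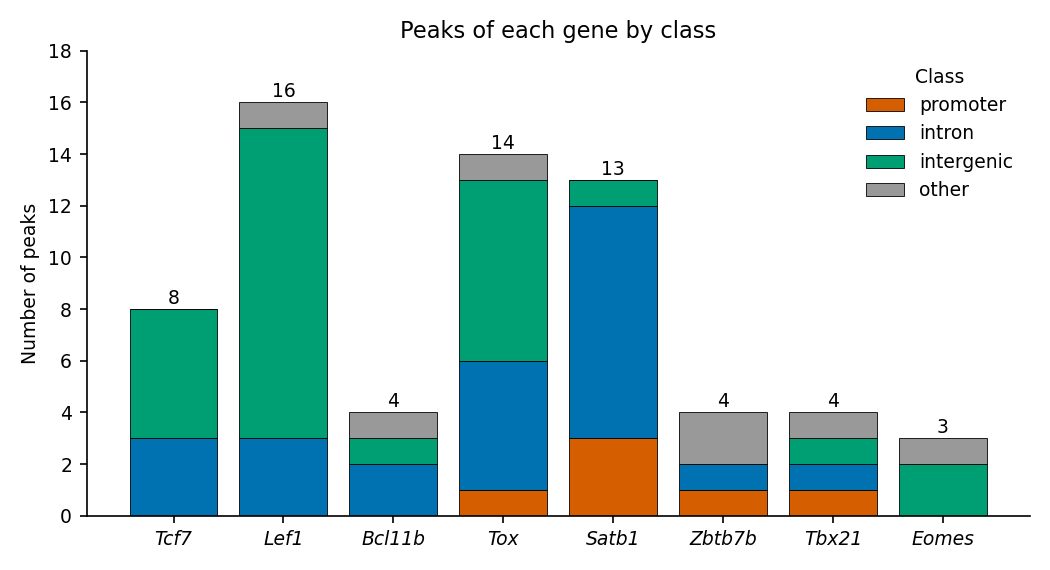
Number of peaks named for each of the 8 genes (y axis), stacked by class. Intergenic peaks were 12 of 16 for Lef1 and 7 of 14 for Tox, Satb1 carried mostly intronic peaks, and promoter peaks were found for Tox, Satb1, Zbtb7b and Tbx21.

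The distance from the TSS differed among the 8 genes. A peak takes the name of its nearest TSS, so the positions of neighbouring TSSs bound how far a named peak can lie. At Eomes, peaks at 24.6 to 90.4 kb carry the name of the non-coding RNA 4933432G23Rik. The distances below therefore describe named peaks and the gene map together. Non-promoter peaks of the members lay a median of 33.5 kb from the TSS, and those of the list 22.3 kb. More than 100 kb from the TSS lay 15 member peaks (22.7%), against 10.9% of the list. Of these 15, 9 belonged to Tox, 5 to Lef1 and 1 to Satb1. Without Lef1 and Tox the direction turned, with a median of 14.2 kb and 1 of 36 peaks (2.78%) beyond 100 kb. Just outside the promoter limit, at 500 to 1000 bp from the TSS, lay 6 member peaks (9.09%), against 2.91% of the list. These 6 were the peaks of Lef1 at -562 bp, Bcl11b at -652 bp, Tox at -527 bp, Satb1 at +806 bp, Tbx21 at -651 bp and Eomes at +859 bp, where negative values are upstream of the TSS. Each belonged to a different gene, and the share of all genes with such a peak was not computed. These distances are those of HOMER. By RefSeq the Tox peak lay 414 bp upstream of a TSS and 307 bp downstream of another, inside the promoter limit. Repeats held 5 member peaks (7.58%, against 15.1% of the list), and CpG islands held 4 (6.06%, against 2.21%), 2 of them at Satb1, 1 at Tox and 1 at Tcf7. The GC content was a median of 49.7% in the members and 48.9% in the list.

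**Figure D2:**
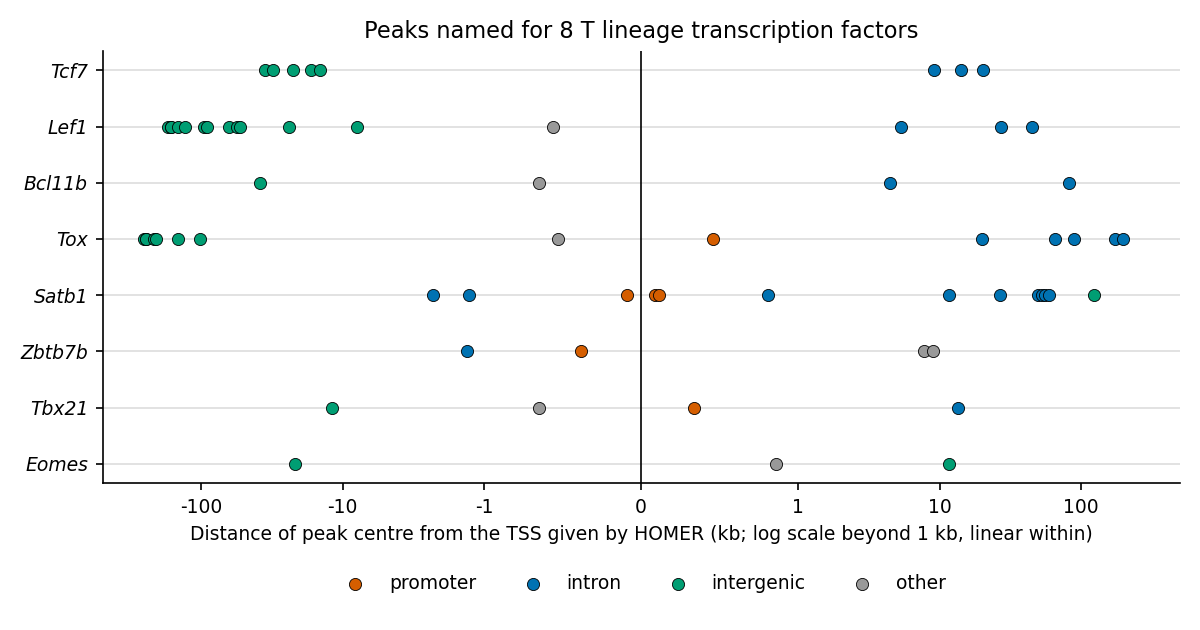
Position of each of the 66 member peaks relative to the TSS given by HOMER (x axis, kb, linear within 1 kb and logarithmic beyond, negative upstream), with 1 row per gene and colour for the class. Lef1 and Tox had intergenic peaks beyond 100 kb upstream, Satb1 had intronic peaks downstream of its TSSs, and Tcf7 had no peak within 9.1 kb of the TSS.

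A peak centred within 500 bp of a curated RefSeq TSS was present for 4 of the 8 genes, Tox, Satb1, Zbtb7b and Tbx21. The same held for 60.3% of the 21000 coding genes, so that the share of the 8 genes was near the background. Satb1 had the most, with 3 promoter peaks at 3 of its 5 TSSs. They were centred 115 bp downstream of the Select TSS, that of the transcript which RefSeq takes as representative, and 90 bp downstream and 92 bp upstream of a further TSS each. Tbx21 had a peak in exon 1 at +337 bp, with the peak at -651 bp on the other side of the TSS, and their centres were 988 bp apart. Zbtb7b had its promoter peak at -386 bp from the TSS of the Select transcript, and its 2 inner TSSs had no peak within 500 bp.

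For Tox the 2 sources of TSSs disagreed on which peak is the promoter peak. HOMER placed the peak at chr4:6990016-6990514 at +458 bp and the peak at chr4:6991001-6991499 at -527 bp. By RefSeq the Select TSS lies further upstream, so that the peak on the CpG island was 571 bp downstream and the other was 414 bp upstream of it and 307 bp downstream of another TSS. Tox therefore has a promoter peak by both, but not the same one.

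The genes without a promoter peak differed in how far the nearest peak was. Eomes and Bcl11b had a peak 859 bp downstream and 652 bp upstream of their only TSS. Lef1 had none nearer than 1932 bp to the Select TSS, but had a peak 562 bp upstream of an inner TSS at position 131112791. At Tcf7 the nearest peak was 9144 bp from the inner TSS and 9563 bp from the Select TSS. Absence from the list does not show closed chromatin, since peaks that overlapped another or failed the filters are not in it.

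The promoters of Satb1 and Zbtb7b are shown as examples of a promoter that a peak overlaps, as 300 bases in the direction of transcription from 250 bases before to 50 bases after the TSS, from RefSeq and GRCm38, minus strand. Capitals mark the same strings. At Zbtb7b the peak reaches over the upstream end of the stretch and not over the TSS.
Satb1, inner TSS, chr17:51826539-51826838: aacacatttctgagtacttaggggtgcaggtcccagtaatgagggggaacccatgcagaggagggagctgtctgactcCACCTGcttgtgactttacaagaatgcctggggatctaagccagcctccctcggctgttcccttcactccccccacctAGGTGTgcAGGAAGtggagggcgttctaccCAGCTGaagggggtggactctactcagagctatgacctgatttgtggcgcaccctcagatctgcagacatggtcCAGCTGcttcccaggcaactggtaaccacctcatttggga
Zbtb7b, Select TSS, chr3:89393329-89393628: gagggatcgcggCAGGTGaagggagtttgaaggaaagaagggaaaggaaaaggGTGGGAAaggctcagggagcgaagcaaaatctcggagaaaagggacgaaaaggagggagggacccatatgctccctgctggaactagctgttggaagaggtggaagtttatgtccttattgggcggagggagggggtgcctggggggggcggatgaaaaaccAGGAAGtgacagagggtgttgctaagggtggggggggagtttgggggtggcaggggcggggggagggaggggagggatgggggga
The stretch at the inner Satb1 TSS held strings for ETS and T-box factors and both E-box strings, 4 kinds in all. It held the most among the Satb1 promoters. The stretch at the Select TSS of Satb1, which a peak also overlaps, held 0 kinds, and the remaining Satb1 promoters held 0 to 2. The Zbtb7b stretch at the Select TSS held strings of ETS, RBPJ and the E-box CAGGTG. Among 32851 RefSeq promoters of the same length, the ETS string was in 35.4%, CAGGTG in 20.2%, CAGCTG in 16.3%, the T-box string in 13.7% and the RBPJ string in 6.38%. Of the 16 promoters of members in that set, the ETS string was in 7, CAGGTG in 6, CAGCTG in 4, RBPJ in 4 and T-box in 3. Some of the 16 overlap each other, and at Lef1 a single RBPJ site was counted in both promoters of such a pair. Tox had no entry.

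Tcf7 (chr11:52252283-52283014, minus strand) had 8 peaks in 2 groups, one inside the gene and one upstream. The 3 intronic peaks lay in intron 2 by HOMER, at +9144, +14162 and +20442 bp from the inner TSS, and all were in intron 3 of the Select transcript. The 5 intergenic peaks lay at -14529, -16866, -22438, -31361 and -35655 bp, between Tcf7 and Vdac1, which encodes a channel of the outer mitochondrial membrane. The 8 peaks were packed closely, and the densest window of 50 kb held 6 of them. The peak at -31361 bp, on a CpG island, held 7 kinds of string, including 3 RUNX, 2 TCF/LEF and 2 GATA matches. Only 1.01% of all non-promoter peaks of the list held 7 or more kinds. In the stretch shown above, the RBPJ string shared letters with a RUNX string, and the T-box string with CAGGTG. The TCF/LEF string was in 4 of the 8 peaks, beside 31.6% of all non-promoter peaks of the list.

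Lef1 (chr3:131110297-131224357, plus strand) had the most peaks, and 12 of its 16 were intergenic and upstream. They reached from -7954 to -173123 bp, along the gap of 379.9 kb to Rpl34, a ribosomal protein gene. A group of 5 lay at 131 to 173 kb. The remaining upstream peaks were at 96.2, 90.6, 63.7, 55.9, 52.8, 24.1 and 7.95 kb. The 3 intronic peaks lay in intron 3, at +5305, +27149 and +44822 bp from the inner TSS. By RefSeq the last of these was 1319 bp downstream of a further inner TSS. The peaks at -24130 and -162814 bp held 7 kinds of string each, so that 3 of the 60 non-promoter member peaks (5.00%) reached 7 kinds, all at Tcf7 and Lef1. At lower limits the members were closer to the list. At least 4 kinds were in 40.0% of the members and 36.5% of the list, at least 5 in 16.7% and 15.5%, and at least 6 in 8.33% and 4.75%. In the stretch shown above for the peak at -24130 bp, the AP-1 and TCF/LEF strings shared letters. RUNX strings were in 10 and TCF/LEF strings in 7 of the 16 Lef1 peaks, beside 42.5% and 31.6% of the list. The peaks at -164064 and -52848 bp overlapped repeats, a simple repeat and an ORR1B2 element.

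Bcl11b (chr12:107910403-108003414, minus strand) had 4 peaks over its 93.0 kb and the flanks. The peak at -652 bp, of 65.5% GC, was next to the TSS. An intronic peak lay at +4485 bp in intron 1, and another at +82093 bp in intron 3 of the Select transcript. The only intergenic peak was at -38361 bp, towards Setd3, a histidine methyltransferase gene. It held 4 kinds of string, with RUNX, CAGCTG and CAGGTG in 2 copies each and GATA in 1. The other 3 peaks held 1 or 2 kinds, and none of the 4 held the TCF/LEF string, which was in 31.6% of all non-promoter peaks of the list.

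Downstream of Bcl11b lies a gene desert that reaches to Vrk1, a kinase gene, over 1833 kb (chr12:106077427-107910402). It was taken as the gap between coding genes with curated transcripts, and RefSeq places 26 further genes in it, of which 18 are long non-coding RNAs and 5 are pseudogenes. The desert held 14 peaks, all intergenic by HOMER, and none was named for Bcl11b. By RefSeq 4 of the 14 lay inside such genes, namely Gm33236, Gm32830, the pseudogene Gm17053 and the predicted coding model Gm46320. Of the 14 peaks, 13 carried the name of a non-coding RNA, namely 6 for 4933406K04Rik, 4 for 1700121N20Rik and 3 for 4930465M20Rik, and 1 carried the name of Vrk1. The TSS that gave the name was far from the peak in most cases, with a median of 171.7 kb and more than 100 kb for 10 of the 14 peaks. The peaks in the desert outnumbered those named for Bcl11b itself by 14 to 4, but over a much longer stretch. The gene body of 93.0 kb held 2 peaks and the upstream gap of 103 kb held 3, so both were denser than the desert of 1833 kb.

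The nearest of the 14 peaks was 358 kb downstream of the Bcl11b TSS and 265 kb beyond the end of the gene. The others followed at 446, 641, 819.9, 843, 855, 862 and 992 kb and at 1345, 1438, 1554, 1593, 1692 and 1828 kb. Thus 12 of the 14 lay beyond 500 kb and 6 beyond 1000 kb. The distance between neighbours ranged from 7.22 to 353 kb, with a median of 98.6 kb. The spacing was uneven, and the densest window of 50 kb held 4 peaks, at 819.9 to 862 kb. A window of 4 or more peaks was found in 92 of the 309 gaps of at least 1 Mb between coding genes (29.8%). The density over the desert was 7.64 peaks per Mb, below the 31.8 per Mb of the genome and above the median of 2.77 per Mb of those gaps. It ranked 73rd among the 309 gaps, and 76.4% had a lower density. The 309 include 56 gaps without a peak, among them the gaps of the Y chromosome, which lower the median and raise this rank.

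**Figure D3:**
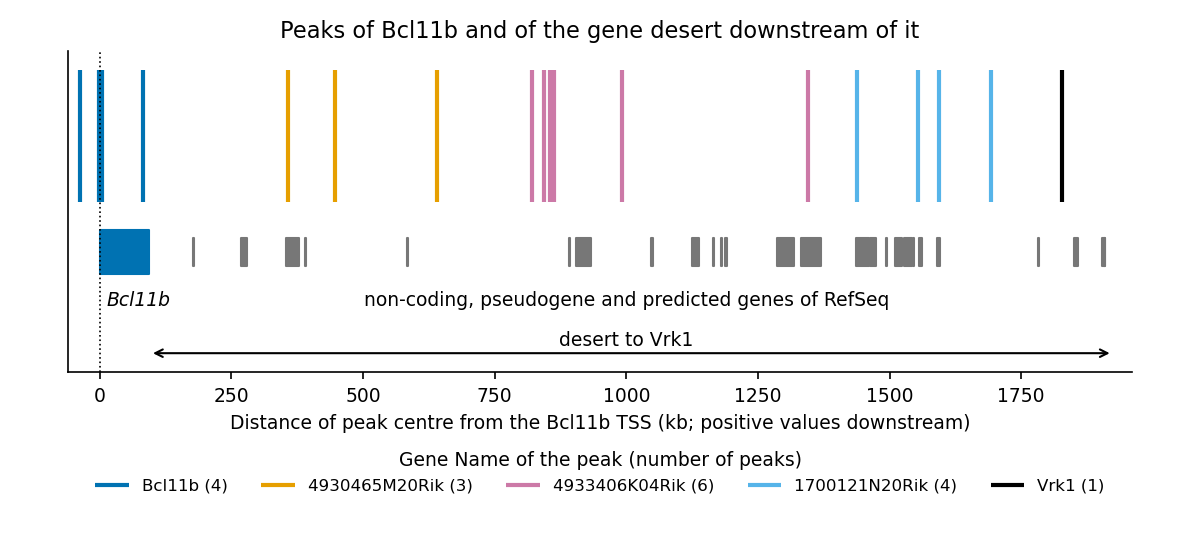
Peaks of Bcl11b and of the desert downstream of it (vertical lines, coloured by the gene name they carry) against the distance from the Bcl11b TSS in kb, with Bcl11b in blue and the other RefSeq genes in grey underneath. The 4 peaks named for Bcl11b lay near the gene, and the 14 in the desert began at 358 kb and had a group of 4 at 819.9 to 862 kb.

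Within the 14 desert peaks the ETS string was in 11 (78.6%, against 65.0% of all non-promoter peaks), CAGGTG in 7 (50% against 32.9%), TCF/LEF in 6 (42.9% against 31.6%) and GATA in 6 (42.9% against 26.9%). RUNX was in 3 (21.4% against 42.5%), CAGCTG in 2 (14.3% against 30.4%) and T-box in 2 (14.3% against 25.2%), so that the 2 E-box strings differed in opposite directions. STAT was in 3 (21.4% against 15.0%) and AP-1 in 2 (14.3% against 16.9%), and the RBPJ and CTCF strings were in 0 of the 14, against 10.8% and 8.74%. With 14 peaks, 1 peak more or less moves such a share by several percentage points. TCF/LEF and GATA strings occurred together in 4 peaks, among them the peak at 862 kb, in the group of 4 and printed above. The share of all non-promoter peaks with both strings was not computed. The peak at 641 kb held 6 kinds, the most in the desert, and 1 peak held none. The GC content was between 43.9% and 56.5%.

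Tox (chr4:6686353-6991557, minus strand) is the longest of the genes, at 305.2 kb. Beside the pair at its TSSs it had 5 intronic peaks, 3 in intron 1 at +19989, +65891 and +89244 bp and 2 in intron 3 at +173333 and +199884 bp. The 7 intergenic peaks were all upstream, from -102436 to -255136 bp, and 5 of them lay within 50 kb of each other at 208 to 255 kb. The GC content of Tox peaks was a median of 42.2%, the lowest among the 8 genes, and reached down to 35.9%. TCF/LEF strings were in 5 of its 13 non-promoter peaks and RUNX strings in 7, beside the same 31.6% and 42.5% of the list.

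The gap upstream of Tox, up to Car8, a carbonic anhydrase-related gene, was also above 1 Mb and was unlike the Bcl11b desert. It held 33 peaks over 1.15 Mb, which is 28.7 per Mb and the 10th highest density among the 309 gaps. Only 7 of the 33 were named for Tox. The non-coding RNA 8430436N08Rik gave its name to 19 peaks at 324 to 863 kb from the Tox TSS, and Car8 to the 7 beyond. The densest window of 50 kb held 5 peaks.

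Satb1 (chr17:51736187-51833290, minus strand) had its 13 peaks almost entirely inside the gene, with 12 in the gene body and 1 intergenic peak at +124627 bp on an MTD-int repeat. Upstream of it the peaks formed 2 groups. The first group followed the 5 TSSs, with the 3 promoter peaks, an intronic peak at +806 bp on a CpG island, and peaks 1274 and 2309 bp upstream of the innermost TSSs, the former on a CpG island with 76.8% GC. The other group lay at the 3′ end, with 4 intronic peaks at +49360, +52609, +55871 and +59709 bp, with 3249 to 3838 bp from each to the next. Single intronic peaks lay between the groups at +11642 and +26949 bp. The distances from +11642 to +124627 bp are from the innermost TSS. From the Select TSS these peaks lay at +32235 to +145220 bp. The densest window of 50 kb held 8 of the 13 peaks, the most of any of the genes.

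Zbtb7b (chr3:89377644-89393378, minus strand), which is short and close to its neighbours, had 4 peaks over 15.7 kb. Beside the promoter peak it had an intronic peak 1330 bp upstream of an inner TSS. From that TSS, a peak in an exon lay at +7783 bp and a peak in the 3′ untranslated region at +8931 bp. From the Select TSS they were at +13490 and +14638 bp. The exonic peak held CAGGTG in 4 copies, more than any other peak of the members, and 3 of them are in the stretch printed above.

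Tbx21 (chr11:97098007-97115331, minus strand) had 4 peaks. Beside the pair on either side of its TSS it had an intronic peak in intron 2 at +13425 bp and an intergenic peak at -11995 bp. The intronic peak held a CTCF string. The upstream peak held a T-box string, which lay directly before a STAT string in the stretch shown, together with ETS and CAGCTG strings. Eomes (chr9:118478189-118486132, plus strand) had the fewest peaks, at -21572 bp, in exon 1 at +859 bp, of 75.8% GC, and at +11625 bp downstream of the gene. The downstream peak held CTCF, RBPJ and STAT strings in the printed stretch and a T-box string elsewhere in the peak. T-box strings were in 2 of the 3 Eomes peaks and in 1 of the 3 non-promoter peaks of Tbx21, beside 25.2% of all non-promoter peaks of the list. With 3 peaks per gene these counts cannot be told apart from that share.

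Over the 60 non-promoter peaks of the members, most consensus strings occurred about as often as in the 71072 non-promoter peaks of the list. The ETS string was in 41 (68.3% against 65.0%), RUNX in 27 (45% against 42.5%), TCF/LEF in 18 (30.0% against 31.6%), CAGCTG in 17 (28.3% against 30.4%), AP-1 in 11 (18.3% against 16.9%), STAT in 10 (16.7% against 15.0%) and RBPJ in 7 (11.7% against 10.8%). T-box strings were in 18 (30.0% against 25.2%), GATA in 12 (20% against 26.9%) and CTCF in 3 (5.00% against 8.74%). The widest gap was for CAGGTG, in 27 member peaks (45% against 32.9%). It did not hold in the central 200 bp of the peaks, where CAGGTG was in 4 member peaks (6.67%) and in 16% of the list. The T-box string (5.00% against 10.9%) and the STAT string (1.67% against 5.63%) turned in the same way. The number of kinds per peak had a median of 3 in the members and in the list. The 18 peaks with the TCF/LEF string belonged to Tcf7 (4 of 8), Lef1 (7 of 16), Tox (5 of 13) and Satb1 (2 of 10). The other genes held 0, but Bcl11b had only 4 non-promoter peaks and Zbtb7b, Tbx21 and Eomes had 3 each. With 1 mismatch allowed, the TCF/LEF string was in 59 of the 60 peaks (98.3%) and in 99.4% of the list, so this search does not set the members apart.

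**Figure D4:**
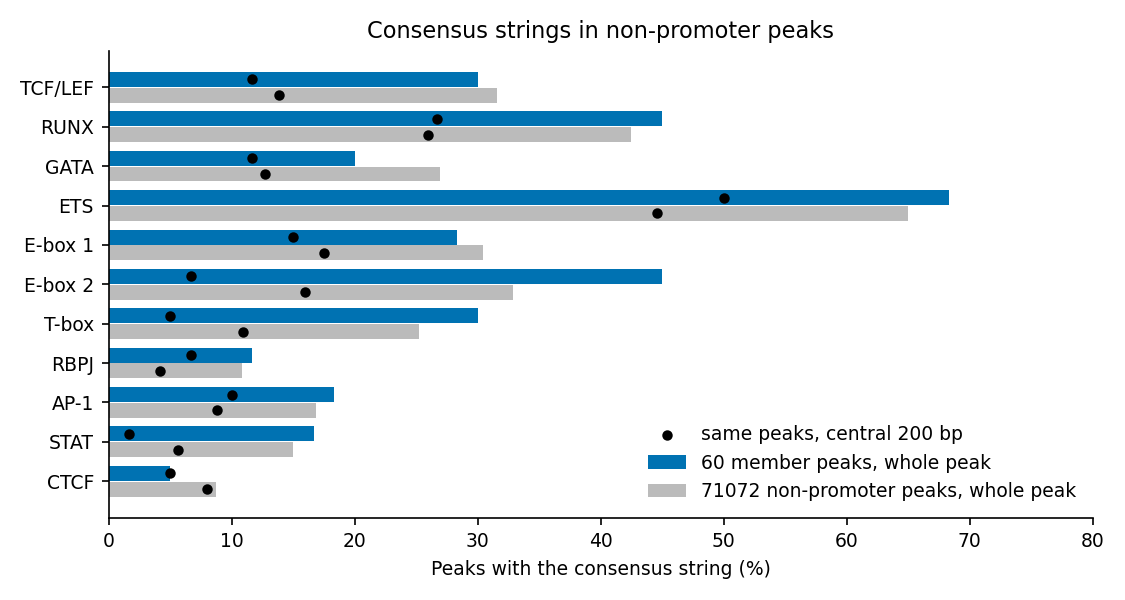
Share of non-promoter peaks (x axis, %) that hold each consensus string, for the 60 member peaks (blue) and all 71072 (grey), with black points for the central 200 bp; E-box 1 and E-box 2 are the strings with GC and GG in the middle. The blue and grey bars are close for most strings, and for E-box 2 the blue bar is longer while its point lies below that of the list.

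The gene name of a peak follows the nearest TSS, also that of a non-coding RNA, and so assigns only part of the open chromatin around the members. Between the neighbouring coding genes lay 191 peaks, of which 66 bore a member's name. Other names were carried by 15 of 19 peaks at Bcl11b (78.9%), 11 of 14 at Eomes (78.6%), 46 of 59 at Satb1 (78.0%), 31 of 45 at Tox (68.9%), 14 of 30 at Lef1 (46.7%), 5 of 13 at Tcf7 (38.5%), 2 of 6 at Tbx21 (33.3%) and 1 of 5 at Zbtb7b (20%). At Satb1 the non-coding genes Gm19585, C330011F03Rik, Gm27217 and Gm20098 gave their names to 18, 8, 7 and 5 peaks, and those of Gm20098 began 44.1 kb from the Satb1 TSS. At Eomes, Gm17399 named 6 peaks at 193 to 310 kb and 4933432G23Rik named 4 peaks at 24.6 to 90.4 kb. Inside Lef1 and Tcf7 themselves, 3 and 1 peaks near the 3′ end were named for Hadh and Skp1a, the next genes downstream.

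**Figure D5:**
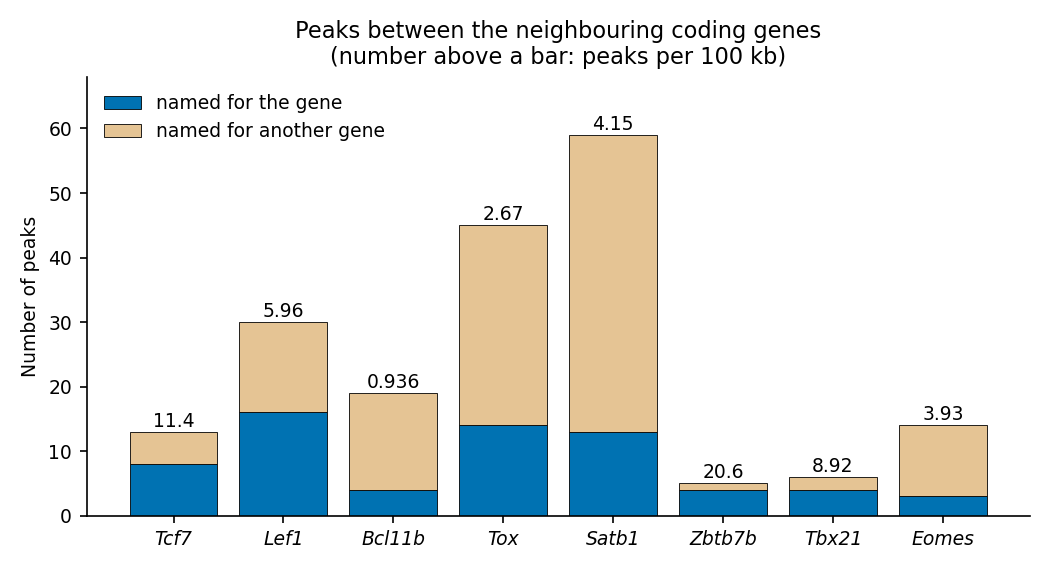
Number of peaks between the neighbouring coding genes of each of the 8 genes (y axis), divided into peaks that carry the gene's name and peaks that carry another, with the density per 100 kb above each bar. Satb1 had the most peaks, most of them under other names, and Zbtb7b had the highest and Bcl11b the lowest density.

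The density of peaks in these territories ran from 20.6 per 100 kb at Zbtb7b, 11.4 at Tcf7 and 8.92 at Tbx21 to 5.96 at Lef1, 4.15 at Satb1, 3.93 at Eomes, 2.67 at Tox and 0.936 at Bcl11b. The median territory of a coding gene had 5.01 per 100 kb. The order is the reverse of the size of the territory at its ends, which was 24.3 kb for Zbtb7b and 2029 kb for Bcl11b. The density of Zbtb7b was above that of 94.9% of coding genes and that of Bcl11b above that of 20.5%. With a single pooled list no error can be put on these densities, and whether neighbours in the order differ cannot be said.

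A pair of gene lists put the members beside related genes. Their 21 paralogs had 98 peaks with a median of 4 per gene, and 14 (66.7%) had a peak within 500 bp of a TSS. Another 14 regulators of T cells had 209 peaks with a median of 12, and 12 (85.7%) had such a peak. The 8 members, with a median of 6 peaks and 4 genes with a TSS peak, lay between the lists in the number of peaks. Their share with a TSS peak was below both lists but near the 60.3% of all coding genes. It depends on the limit of 500 bp, since Lef1, Bcl11b and Eomes had a peak 562, 652 and 859 bp from a TSS. The lists were not compared at a wider limit. Among the closest paralogs, Tcf7l2 had 23 peaks and Tcf7l1 had 7, against 8 for Tcf7 and 16 for Lef1. Tox2 had 6 and Tox3 had 5 peaks against 14 for Tox.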

How the data were processed

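ATAC-seq was done on 12 samples of 6 cell types. Alignment to mm10 and peak calling were done by the authors in the ENCODE pipeline for ATAC-seq, with no multimapping reads kept. The lists of all cell types from the Irreproducible Discovery Rate step were joined, reduced to non-overlapping peaks with chromVAR and annotated with HOMER (version 4.10.2 in the submitters' processing notes). The deposited start, end and distance to the TSS are in bp. The score deposited by the authors was 0 in all 84243 peaks and was not used. The 12 samples have 0 columns of their own, so that nothing was tested.

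Members were the peaks whose gene name was 1 of the 8 genes. The members, gene lists and strings were chosen with earlier results of these data known. The text names the members, their neighbouring coding genes and the RNAs between them, and genes of the lists, of which some are not reported here. Genes, TSSs and sequences came from RefSeq for GRCm38.p6, with curated transcripts only. The HOMER distance was within 2 bp of that to a curated TSS for 50 of the 66 peaks. Coding genes were matched by Entrez identifier. Alternatives changed the promoter limit, the rule that assigns peaks, the bounds of the desert, the window and the string search. The search was tested on simulated sequences. Python 3.11.15, numpy 2.4.6, pandas 2.3.3 and matplotlib 3.10.9 were used.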

Additional observations from a re-analysis of the deposited data

How the results depend on the processing

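The count of promoter peaks depended on the distance allowed, with 2 within 100 bp and 12 within 1000 bp of a TSS in place of 6, while the promoter class of HOMER gave 7 and RefSeq TSSs gave 6. Intronic peaks numbered 23 to 30 and intergenic peaks 29 under the alternatives. The rule that ties a peak to a gene moved the 66 member peaks to 38 in the gene bodies, to 191 between neighbouring coding genes and to 191 with a basal domain extended by up to 1 Mb, against 75 with an extension of 100 kb. The desert held 14 peaks, 0 when it was ended at the nearest RefSeq gene of any kind, 0 when peaks had to carry the name Bcl11b, and 7 when predicted coding models also ended it, an alternative chosen after seeing the data. Its densest window held 3 peaks at 20 kb and 4 at 100 kb. All 60 non-promoter peaks held a string, and 48 held one in the central 200 bp, where the counts of 9 of the 11 strings moved by more than 1.5 times. With 1 mismatch allowed, the counts of 10 of the 11 strings did so. The shares of all non-promoter peaks of the list with any string are not given here. The median was 3 kinds per peak in the members and in the list, so holding a string is not particular to the members. No paired analysis was possible because the list has no values per sample. Depth is unknown, and a region missing from the list cannot be told apart from one that was filtered out.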

Other observations

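Among the 14 other regulators of T cells, those with the most peaks were Runx1 with 35, Prdm1 with 33, Ets1 with 27 and Runx3 with 23. Prdm1, which encodes a transcriptional repressor that drives terminal differentiation of lymphocytes, had 30 of its 33 peaks between genes. Gata3, a zinc finger factor of early T cells, had 15 peaks, of which 11 were intergenic. Foxp3, the factor of regulatory T cells, had 0 peaks of its name. Among the paralogs, Tox4 and Tbx22 had 0 peaks of their name, but a peak named for another gene was centred 274 bp from a TSS of Tox4.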
